A study of Homo sapiens with 12 samples.

Results

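Cytoplasmic RNA was compared between 2 human HEK293 lines, one carrying full-length PGC-1α (WT-res) and the other PGC-1α without its RS region (ΔRS-res), at the level of whole genes. The comparison used 6 of the 12 libraries of the series, 3 WT-res and 3 ΔRS-res cytoplasmic libraries, and expected counts were added up over the transcripts of each gene. Genes were described when they lay outside 3 long stretches of the GRCh38 genome, chr2:173000001-242200000, chr5:1-50800000 and chr7:141700001-159400000, in which neighbouring genes differed together between the lines. Of 25949 genes tested, 24949 lay outside the stretches, 958 lay inside them and 42 had no position. Inside the stretches 204 genes were called, and they are not described here.

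Both lines are HEK293 Flp-In T-REx cells, a human embryonic kidney line with a single integration site and a promoter that doxycycline switches on. In both lines doxycycline induced chained miRNAs against the cell's own PGC-1α mRNA together with a FLAG-tagged PGC-1α that these miRNAs do not recognise. WT-res expressed the full-length protein and ΔRS-res a protein that the submitters describe as lacking residues 595 to 633, although the paper's own domain map starts the RS region earlier. All libraries came from cells kept in doxycycline at 1 µg/ml for 6 days, so no uninduced cells enter the comparison. Cytoplasmic RNA was made by hypotonic lysis of 6 pooled wells per replicate, and whole-cell RNA came from 1 well. Each line had been grown from a single surviving colony, so it is 1 clone, and the replicates are consecutive passages of that clone. A difference between the PGC-1α proteins and a difference between the clones therefore cannot be told apart, and the p-values measure the spread between passages of a clone.

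PGC-1α, the product of PPARGC1A, is a transcriptional coactivator. It binds no DNA by itself but docks on transcription factors such as NRF1, the GABP factors, the oestrogen-related receptors and the PPARs, and it is best known for raising the genes of mitochondria and of oxidative metabolism in muscle, brown fat, heart and liver. Its carboxyl-terminal end carries an arginine- and serine-rich (RS) region beside an RNA recognition motif. RS regions are typical of splicing factors and of proteins that accompany mRNA through the nuclear pore, where the helicase DDX19B helps to strip proteins from the arriving mRNA. The comparison addresses which mRNAs differ in the cytoplasm when this region is missing.

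The cytoplasmic libraries held between 92.0 and 144.6 M counts, and between 29897 and 31151 genes had a count. Levels are given in CPM, counts divided by the M of the TMM-scaled library, and are not divided by gene length. Pairs of cytoplasmic libraries of one line differed beyond sampling noise, and a chi-square test of their counts gave between 16.3 and 109 per gene. The 6 cytoplasmic libraries did not fall into 2 groups by line on their strongest axis. Over 14026 genes, the first principal component took 54.6% of the variance and set WT-res replicates 1 and 3 and ΔRS-res replicate 3 on its positive side, and WT-res replicate 2 and ΔRS-res replicates 1 and 2 on its negative side. The lines separated on the second component, with 27.8% of the variance. The study kept WT-res replicates 1 and 3 and ΔRS-res replicates 1 and 2 for its cytoplasmic comparison, which also separates those 4 libraries along the first component. All 6 libraries were used here, and the results without WT-res replicate 2 or without ΔRS-res replicate 3 are stated where they bear on a count. Of the whole-cell libraries, 1 (WT-res replicate 3) goes against its label at many of the called genes. Whole-cell values are given without it unless stated. These are bulk libraries, in which fewer cells with a transcript and less of it per cell cannot be told apart.

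All 14 genes taken as marks of HEK293 cells were tested. They include the kidney progenitor factors PAX2 and LHX1, the keratins and the neurofilaments, and their summed CPM was 1780, 1815 and 1814 in WT-res and 1899, 1889.8 and 2019.6 in ΔRS-res. Genes that define other cell types were at or near 0, with at most 4 counts in any library for PTPRC of white blood cells, 2 for CDH5 of endothelium and 3 for COL1A2 of fibroblasts. Some other genes of those lists had counts, and their sums moved between the lines. Outside the stretches, the fibroblast list (10 genes, 7 tested) summed to between 5.77 and 7.11 CPM in WT-res and between 4.57 and 5.32 in ΔRS-res, most of it from COL1A1, although the median log2 fold change of the 7 was 1.16. The blood list (12 genes, 6 tested) summed to between 6.12 and 6.66 CPM in WT-res and between 7.88 and 8.76 in ΔRS-res, most of it from the globin gene HBA1. The endothelial list (8 genes, 6 tested) summed to between 1.89 and 2.45 CPM in WT-res and between 1.7 and 1.93 in ΔRS-res, so the lines overlapped. RNAs that stay in the nucleus, such as NEAT1 and MALAT1, overlapped as well, with sums from 21821 to 29151 CPM in WT-res and from 21708 to 25680.1 in ΔRS-res. None of the tested genes of these 4 lists was called. Of the HEK293 genes KRT8 was called increased (log2 fold change 0.53), and their summed CPM did not overlap between the lines.

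A gene was called when the adjusted p of edgeR's quasi-likelihood test (Benjamini-Hochberg over all genes tested) was under 0.05. Outside the stretches 192 genes were called, 0.770% of those tested. In ΔRS-res 104 of them were reduced (0.417% of genes tested) and 88 were increased (0.353%), and 2292 genes had an unadjusted p under 0.05. The called genes comprised 145 protein-coding genes, 34 lncRNA genes and 13 genes of other types. Their changes were often large, with a median log2 fold change of -1.19 among the reduced and 1.16 among the increased genes. In size, 56 reduced and 47 increased genes exceeded 1 on the log2 scale, and 31 and 25 of them exceeded 2. Among the reduced genes 19 stood below 1 CPM in every ΔRS-res library and above it in every WT-res library, and 13 of the increased genes showed the opposite. The 3 libraries of one line lay entirely on one side of the other 3 for each of the 192 genes. That was also so for 7.36% of all genes tested with ΔRS-res lower and for 8.39% with ΔRS-res higher. Over all 24949 genes the median log2 fold change was 0.009, and 48.4% were lower in ΔRS-res.

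**Figure D1:**
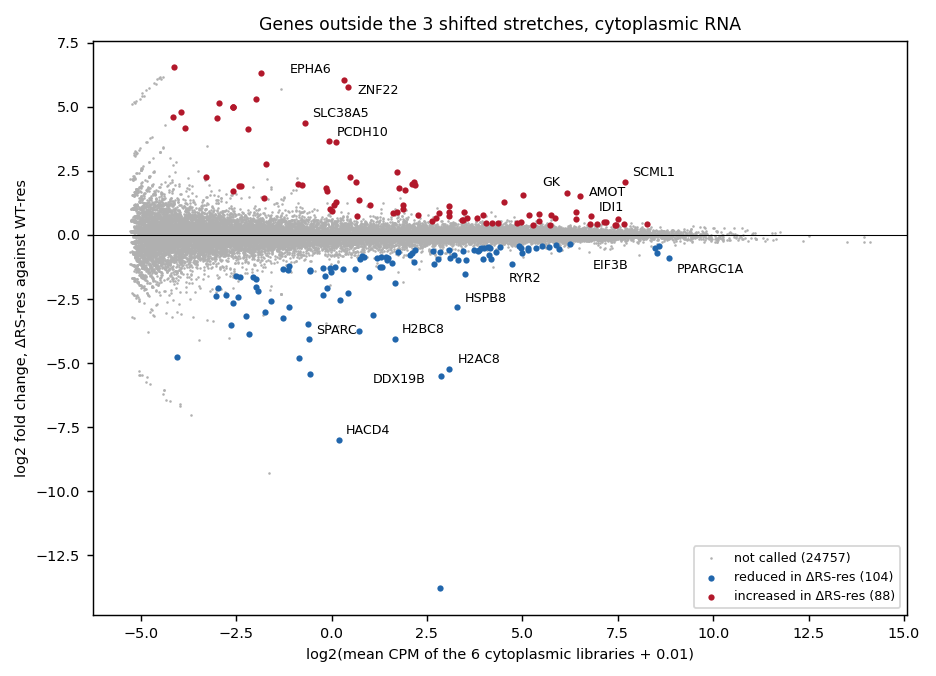
Vertical axis, log2 fold change in cytoplasmic RNA (ΔRS-res relative to WT-res), against the mean level of each gene, as log2 of CPM plus 0.01 (horizontal axis), for the 24949 genes outside the 3 stretches. Grey points were not called, blue points are the 104 reduced and red points the 88 increased genes. Large changes sit mostly at low levels, and PPARGC1A, JUN, EIF3B and CANX are the called genes farthest to the right.

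How many genes were called depended on single libraries. With 1 library left out there were 62 calls without WT-res replicate 1, 54 without WT-res replicate 3, and 66 each without ΔRS-res replicate 1 or replicate 2. There were 136 calls without WT-res replicate 2 and 158 without ΔRS-res replicate 3, the libraries that the study did not use. Of the 192 genes 52 were called in all 6 of these fits and 48 in none, and 0 changed direction. With the study's 4 libraries alone 5266 genes were called, 21.2% of 24821, including all 192. DESeq2's Wald test on the 6 libraries called 597 genes (258 reduced and 339 increased), including 191 of the 192.

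Among the genes that fell most, several were close to absent in ΔRS-res. HACD4, one of the enzymes of very-long-chain fatty acid elongation, had 2.44, 1.85 and 2.5 CPM in WT-res and 0.0, 0.0227 and 0.0 CPM in ΔRS-res. That was 810 counts against 3, a ratio of normalised counts of 286 (95% interval 97.4 to 1388, for counting error only). DDX19B (chr16:70289663-70335305) had 13.6, 14.8 and 14.5 CPM in WT-res and 0.345, 0.28 and 0.321 CPM in ΔRS-res, with means of 14.3 ± 0.624 and 0.315 ± 0.033 (SD, n = 3 per line). Its log2 fold change was -5.50 (SE 0.137, adjusted p = 4.8e-06). Its neighbouring paralog DDX19A, with 56.1, 74.4 and 58.4 CPM in WT-res and 70.6, 72.5 and 60.6 CPM in ΔRS-res, overlapped between the lines (log2 fold change 0.11, adjusted p = 0.852). DDX19B and DDX19A both overlap the gene ENSG00000260537 on the same strand. How RSEM divided reads among these genes was not tested. ECHDC3, named for its enoyl-CoA hydratase domain, was at 1.57, 0.634 and 1.72 CPM in WT-res and at 0.0466, 0.0151 and 0.0285 CPM in ΔRS-res (log2 fold change -5.44, adjusted p = 0.00336). THNSL2, a threonine synthase-like gene, fell by 3.74 on the log2 scale (adjusted p = 0.00644), from a mean of 3.06 to 0.224 CPM. All 4 called genes of this paragraph remained called with any 1 library left out.

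A pair of replication-dependent histone genes that share a promoter fell together. H2AC8 encodes a histone H2A and H2BC8 a histone H2B, and they are read in opposite directions from neighbouring starts on chromosome 6. H2AC8 (chr6:26216921-26217437, plus strand) had 16.4, 15.6 and 17.1 CPM in WT-res and 0.597, 0.499 and 0.235 CPM in ΔRS-res. H2BC8 (chr6:26216200-26216688, minus strand) had 5.57, 6.96 and 5.29 CPM in WT-res and 0.382, 0.477 and 0.221 CPM in ΔRS-res. The log2 fold changes were -5.22 (SE 0.293, adjusted p = 0.000206) and -4.05 (SE 0.278, adjusted p = 0.000523), and both genes remained called in each fit that left out 1 library. They were the only members called among 78 tested histone genes, whose median log2 fold change was 0.07 with 51 higher and 27 lower in ΔRS-res. Over all genes tested outside the stretches 0.770% were called. Histone genes have near-identical copies elsewhere in the genome, and how RSEM divided reads among them could move the level of a single copy.

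The promoter of H2AC8 is shown because it serves both genes. RefSeq's window for GRCh38.p14 (250 bases before the start to 50 after it, 300 bases in all) is chr6:26216671-26216970 on the plus strand, and it shares 268 bases with the window of H2BC8 on the minus strand. Capitals mark each match of TATAAA or CCAAT, or of their reverse complements TTTATA and ATTGG, on the plus strand.
H2AC8: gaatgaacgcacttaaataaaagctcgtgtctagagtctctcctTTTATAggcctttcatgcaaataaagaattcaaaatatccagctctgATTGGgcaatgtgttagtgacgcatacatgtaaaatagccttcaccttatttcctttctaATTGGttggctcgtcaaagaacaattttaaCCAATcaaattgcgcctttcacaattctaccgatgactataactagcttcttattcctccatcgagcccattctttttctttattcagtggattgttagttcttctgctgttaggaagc
The window held 1 TTTATA, which reads TATAAA on the strand of H2BC8, 1 CCAAT and 2 ATTGG, and it had 7 CG dinucleotides. Over all 35116 RefSeq promoter windows of the table, 11.5% held a TATAAA and 34.6% a CCAAT on either strand. The matches describe the letters only.

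SPARC, a secreted glycoprotein of the extracellular matrix, fell as well. Its levels were 1.52, 0.992 and 1.22 CPM in WT-res and 0.056, 0.0378 and 0.121 CPM in ΔRS-res (log2 fold change -4.07, SE 0.388, adjusted p = 0.00302). The lines were far apart at a low level. EMILIN2, an elastin-associated glycoprotein, fell by 0.67 (adjusted p = 0.0348; the call was lost when any 1 library was left out). These were the 2 called of 108 tested matrix genes, whose median was 0.01, beside 0.770% called of all genes tested outside the stretches. HSPB8, a small heat-shock protein that works with BAG3 in clearing misfolded proteins, had 17.7, 14.6 and 19.2 CPM in WT-res and 2.79, 1.98 and 2.58 CPM in ΔRS-res, a log2 fold change of -2.81 (SE 0.168, adjusted p = 0.000277). ATL3, an atlastin that fuses tubules of the endoplasmic reticulum, fell by 3.14 (adjusted p = 0.00175), from 3.83 ± 0.668 to 0.431 ± 0.146 CPM. ERVMER34-1, an envelope gene of an endogenous retrovirus, had 1.27, 1.15 and 1.15 CPM in WT-res against 0.103, 0.113 and 0.0999 CPM in ΔRS-res (log2 fold change -3.48, adjusted p = 0.000248). ALPL, the tissue-nonspecific alkaline phosphatase, fell by 2.35 (adjusted p = 0.00918) and was still called without WT-res replicate 2, ΔRS-res replicate 1 or ΔRS-res replicate 3, but not without any of the other 3 libraries.

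The largest rises were also in genes that WT-res hardly expressed. EPHA6, a receptor tyrosine kinase for ephrins, had 0.0642, 0.0 and 0.0492 CPM in WT-res and 2.04, 2.22 and 3.15 CPM in ΔRS-res (log2 fold change 6.05, SE 0.547, adjusted p = 0.00255). ZNF22, a small zinc finger protein, had 0.0428, 0.0406 and 0.0562 CPM in WT-res and 2.78, 2.71 and 2.46 CPM in ΔRS-res, a 55.0-fold difference (log2 fold change 5.78, SE 0.216, adjusted p = 1.92e-05). ZNF22 had the smallest adjusted p among the increased genes. SLC38A5, a transporter of glutamine and other neutral amino acids, had 0.0214, 0.0813 and 0.0562 CPM in WT-res and 1.08, 1.15 and 1.27 CPM in ΔRS-res (log2 fold change 4.38, adjusted p = 0.00116). All 3 remained called with any 1 library left out.

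Further genes rose from low levels in WT-res. PCDH10, a delta-protocadherin of cell adhesion, rose from 0.15, 0.163 and 0.105 CPM in WT-res to 2.03, 1.59 and 1.64 CPM in ΔRS-res (log2 fold change 3.66, adjusted p = 0.000436). SLITRK5, a synaptic adhesion protein, was at 0.182, 0.0894 and 0.204 CPM in WT-res and at 1.54, 1.64 and 2.79 CPM in ΔRS-res (log2 fold change 3.64, adjusted p = 0.00356). NALCN, a sodium leak channel, rose by 2.24 on the log2 scale (adjusted p = 0.0032) and NAV3, a neuron navigator, by 1.83 (adjusted p = 0.00605). CEND1, a protein of the neuronal lineage, had 1.57, 1.85 and 1.72 CPM in WT-res against 7.35, 7.47 and 6.81 CPM in ΔRS-res (log2 fold change 2.07, adjusted p = 0.000277). NECTIN3, an adhesion protein of junctions, went from a mean of 0.594 to 2.49 CPM (log2 fold change 2.06, adjusted p = 0.00199). PCDH10, SLITRK5 and EPHA6 belong to lists of adhesion or guidance genes. The synaptic and neurite adhesion list had 1 called of 50 tested (SLITRK5) and a median of 0.00, with 26 genes lower and 24 higher. The cadherin list had 1 called of 44 (PCDH10) and a median of 0.03. Of all genes tested outside the stretches 0.770% were called. In the axon guidance list, with 68 tested, 43 higher, 25 lower and a median of 0.10, EPHA6 and EFNB1 rose and SLIT2 fell, the last by 0.39 (adjusted p = 0.0393, lost with any 1 library left out). PPP1R14A, an inhibitor of myosin phosphatase, rose by 1.81 (adjusted p = 0.0162) and lost its call without WT-res replicate 1 or ΔRS-res replicate 2.

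The start regions of a gene that rose and of a gene that fell are given for comparison with the histone window. ZNF22 lies on the plus strand at chr10:45000673-45000972 and SPARC on the minus strand at chr5:151686866-151687165, both as RefSeq windows of GRCh38.p14 with each CG dinucleotide in capitals.
ZNF22: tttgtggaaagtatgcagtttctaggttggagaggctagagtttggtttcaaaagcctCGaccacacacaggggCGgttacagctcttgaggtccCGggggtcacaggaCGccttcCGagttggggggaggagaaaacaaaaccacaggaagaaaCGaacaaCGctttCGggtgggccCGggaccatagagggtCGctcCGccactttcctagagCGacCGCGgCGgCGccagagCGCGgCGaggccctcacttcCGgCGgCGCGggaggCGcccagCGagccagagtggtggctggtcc
SPARC: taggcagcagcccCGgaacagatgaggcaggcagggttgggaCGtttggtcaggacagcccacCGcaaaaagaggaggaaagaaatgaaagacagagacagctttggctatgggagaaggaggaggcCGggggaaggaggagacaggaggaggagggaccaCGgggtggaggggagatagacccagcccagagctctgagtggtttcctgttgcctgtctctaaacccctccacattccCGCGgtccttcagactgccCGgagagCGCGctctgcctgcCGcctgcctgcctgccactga
The ZNF22 window held 25 CG and the SPARC window 11, and neither held TATAAA or CCAAT on either strand. RefSeq windows were found for 70 of the 104 reduced genes and 65 of the 88 increased genes, and for 13758 of all genes tested outside the stretches. The median number of CG per window was 19.5 among the reduced, 26 among the increased and 27 among all tested genes. A CCAAT was present for 54.3% of the reduced, 41.5% of the increased and 42.3% of all tested genes, and a TATAAA for 12.9%, 7.69% and 9.87%. These shares are a description of the sets and were not tested.

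PPARGC1A had the highest CPM of the named reduced genes, with 652, 538 and 624 CPM in WT-res and 291, 287 and 385 CPM in ΔRS-res (log2 fold change -0.92, SE 0.133, adjusted p = 0.016). Its counts include those of the introduced copy. EIF3B, a scaffold subunit of the initiation factor that brings mRNA to the ribosome, had 425, 515 and 442 CPM in WT-res and 297, 293 and 258 CPM in ΔRS-res (log2 fold change -0.71, SE 0.0978, adjusted p = 0.0133). CANX, calnexin, a lectin chaperone of the endoplasmic reticulum, had 448, 388 and 435 CPM in WT-res and 287, 278 and 320.4 CPM in ΔRS-res (log2 fold change -0.52, SE 0.0885, adjusted p = 0.0304). The lines did not overlap for any of the 3. INVS and ANKS6, which work together in the inversin compartment of the primary cilium, were both lower, INVS by 0.71 (adjusted p = 0.0117) from 39.7 to 24.2 CPM and ANKS6 by 0.55 (adjusted p = 0.0176) from 74.1 to 50.7 CPM. They lie on the same arm of chromosome 9. Among the 20 nearest expressed genes (10 on each side, mean count of at least 100), 14 were lower for INVS, with a median of -0.18. For ANKS6, 12 of 20 were lower, with a median of -0.16. JUN, a subunit of the AP-1 factor, had 464, 413 and 451 CPM in WT-res and 335, 316 and 323 CPM in ΔRS-res (log2 fold change -0.45, adjusted p = 0.0265), and it was the single member called among 32 immediate early genes with a median of 0.02. The share called over all genes tested outside the stretches was 0.770%. RYR2, a calcium release channel of the endoplasmic reticulum, had 39.9, 31.4 and 38.5 CPM in WT-res and 15, 15.5 and 19 CPM in ΔRS-res (log2 fold change -1.15, adjusted p = 0.00602, called with any 1 library left out). PPARGC1A, INVS, ANKS6, CANX and JUN, by contrast, remained called only without WT-res replicate 2 or without ΔRS-res replicate 3, and EIF3B also without WT-res replicate 1.

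On the increased side, SCML1, a polycomb-related gene on the X chromosome, had 83.2, 66.5 and 87.8 CPM in WT-res and 291, 301 and 412 CPM in ΔRS-res. It was 4.23-fold higher (log2 fold change 2.08, SE 0.162, adjusted p = 0.00117) and remained called with any 1 library left out. AMOT, angiomotin, a scaffold that binds YAP, had 56.1, 33.7 and 51.9 CPM in WT-res and 113, 115 and 179.8 CPM in ΔRS-res (log2 fold change 1.53, SE 0.236, adjusted p = 0.0208), and was called only without WT-res replicate 2 or ΔRS-res replicate 3 when 1 library was left out. KRT8, a keratin of simple epithelia, reached at most 127 CPM in a WT-res library and was at 175, 169 and 176 CPM in ΔRS-res (log2 fold change 0.53, adjusted p = 0.0237), with the same dependence on the libraries. BRWD3, a bromodomain protein, rose by 0.88 (adjusted p = 0.00789) and was not called without WT-res replicate 1 or WT-res replicate 3. RAC3, a small GTPase, had 37.2, 40.3 and 39.7 CPM in WT-res and 67.8, 68.3 and 67.3 CPM in ΔRS-res (log2 fold change 0.79, SE 0.0666, adjusted p = 0.00173). Its spread within a line was at most 1.61 CPM (SD), and it remained called in each fit that left out 1 library.

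Genes of sterol and fatty acid synthesis were shifted upward in ΔRS-res, but few passed the test. Of 34 tested, 29 were higher and 5 lower, with a median log2 fold change of 0.31 against 0.009 over all genes. The median stayed between 0.25 and 0.38 with any 1 library left out, and the summed CPM was 2773, 2909 and 2541 in WT-res and 3304, 3186 and 3526 in ΔRS-res. IDI1 and FDFT1 were the 2 called, beside 0.770% called of all genes tested outside the stretches. IDI1, which isomerises the building blocks of isoprenoids, had 80.4, 84.3 and 87.1 CPM in WT-res and 127, 135 and 156 CPM in ΔRS-res (log2 fold change 0.73, SE 0.0899, adjusted p = 0.00844), and it was not called without WT-res replicate 1 or WT-res replicate 3. FDFT1, squalene synthase, had 169, 177 and 181 CPM in WT-res and 219, 243 and 239 CPM in ΔRS-res (log2 fold change 0.41, adjusted p = 0.0346). It lost the call with any 1 library left out. SLC25A1, the carrier that brings citrate out of mitochondria and so supplies carbon for fatty acid synthesis, had 144, 133 and 149 CPM in WT-res and 205, 206 and 246 CPM in ΔRS-res (log2 fold change 0.62, adjusted p = 0.0178, kept only without ΔRS-res replicate 3).

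Genes long tied to PGC-1α were not called with the 6 libraries. TFAM, which packages and transcribes mitochondrial DNA, had 220.2, 284 and 245 CPM in WT-res and 276, 285 and 234 CPM in ΔRS-res (log2 fold change 0.08, SE 0.116, adjusted p = 0.884). NRF1, a transcription factor on which PGC-1α docks, had 31.9, 35.3 and 32.5 CPM in WT-res and 32.9, 33.1 and 31.8 CPM in ΔRS-res (log2 fold change -0.03, SE 0.0757, adjusted p = 0.954). The lines overlapped for both. COX5A, a subunit of cytochrome c oxidase, had 226, 225 and 234 CPM in WT-res against 255, 254 and 271 CPM in ΔRS-res without passing the test (log2 fold change 0.19, SE 0.0656, adjusted p = 0.331). COX10 and COA6, which help to assemble that enzyme, and CAT, catalase, which the study used as a gene independent of PGC-1α, had log2 fold changes of -0.03 (SE 0.103), 0.08 (SE 0.117) and 0.08 (SE 0.0777) with adjusted p of 0.97, 0.897 and 0.81. The related coactivators PPARGC1B and PPRC1 had log2 fold changes of -0.22 (adjusted p = 0.223) and -0.20 (adjusted p = 0.319), and for both the 3 ΔRS-res libraries lay below the 3 WT-res libraries. With the study's 4 libraries, where 21.2% of all genes were called, TFAM was called increased (0.28, adjusted p = 0.0204) and COX10 (-0.17, adjusted p = 0.0398), PPARGC1B (-0.20, adjusted p = 0.0236) and PPRC1 (-0.20, adjusted p = 0.0268) reduced, while NRF1, COX5A, COA6 and CAT were not called. Of 32 genes of the PGC-1 family and its partners only PPARGC1A itself, whose counts include the introduced copy, was called with the 6 libraries. Of the 32, 16 were higher and 16 lower.

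The mitochondrial lists had no called member, and their medians lay above 0. Of 77 subunits of the respiratory chain encoded in the nucleus 73 were higher in ΔRS-res and 4 lower, with a median of 0.15, a range of this median of 0.07 to 0.19 when 1 library was left out, and quartiles of 0.10 and 0.20. Their summed CPM was 9194, 10001 and 10408 in WT-res and 10661, 11626 and 10879.6 in ΔRS-res, so the lines did not overlap. Of 80 mitochondrial ribosomal proteins 62 were higher, with a median of 0.07 and overlapping sums. The 16 genes of mitochondrial transcription and replication had a median of 0.07, which fell to -0.01 in 1 of the fits that left out a library, the fit without WT-res replicate 1. Subunits of the cytosolic ribosome went the other way, with 79 of 84 lower, a median of -0.15 (-0.21 to -0.06 with 1 library left out), 0 called and overlapping sums. By comparison 45.4% of all 15551 protein-coding genes were lower and their median was 0.02. Genes outside these lists that bear on mitochondrial metabolism and were called, named here after their values had been seen, include PDK2, a kinase that restrains pyruvate dehydrogenase (0.46, adjusted p = 0.0348), HCCS, which attaches haem to cytochrome c (0.65, adjusted p = 0.0107), and DECR1, an enzyme of unsaturated fatty acid oxidation (-2.20, adjusted p = 0.00643). DECR1 was at a low level, with means of 0.417 CPM in WT-res and 0.0903 CPM in ΔRS-res and a mean count of 30.5. It overlaps NBN on the other strand. DECR1 remained called with any 1 library left out, HCCS only without WT-res replicate 2 or ΔRS-res replicate 3, and PDK2 in none of these fits.

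Of 80 tested genes of transport through the nuclear pore, DDX19B was the single one called, and the median of the list was 0.01 with 42 higher and 38 lower. The share called over all genes tested outside the stretches was 0.770%. The list of SR proteins and hnRNPs had 0 called of 62 and a median of 0.03. The end-joining genes of double-strand break repair that lie outside the stretches numbered 18, and 0 were called with a median of 0.00. Cell cycle genes (48 tested, median 0.04), AMPK and insulin signalling (35, median 0.03), Wnt (60, median 0.07), TGF-beta and BMP (64, median 0.04) and Notch and Hedgehog genes (33, median 0.02), imprinted genes (29, median 0.02) and genes of the ATF4 and unfolded protein responses (41, median -0.04) had no called member either. With the study's 4 libraries the last of these medians was -0.29, and it was 0.14 in whole-cell RNA.

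Other lists held 1 to 3 called members with medians between -0.05 and 0.11. Over all genes tested outside the stretches 0.770% were called. The single calls among the 155 developmental factors and the 130 homeobox genes were near that share. SLC2A3, a neuronal-type glucose transporter, fell by 1.88 (adjusted p = 0.00117) from 5.53, 4.63 and 4.8 to 1.49, 1.2 and 1.36 CPM and stayed called with any 1 library left out, and CA12, a carbonic anhydrase, fell by 0.62 (adjusted p = 0.0471). They were the 2 called of 41 genes of glycolysis and hypoxia, of which 29 were higher. PRAME, a cancer-testis antigen, had 14.7, 15.3 and 15.3 CPM in WT-res and 7.31, 7.67 and 8.18 CPM in ΔRS-res (log2 fold change -0.97, adjusted p = 0.00302, called with any 1 library left out). IFITM2, which restricts virus entry, fell by 0.91 (adjusted p = 0.0348) as the single called of 52 interferon-stimulated genes, and it overlaps another annotated gene on the same strand. PRDX2, a peroxiredoxin, had 251, 276 and 263 CPM in WT-res and 349.8, 360 and 339 CPM in ΔRS-res (log2 fold change 0.41, adjusted p = 0.0308) and was the single called of 30 antioxidant genes. It overlaps HOOK2 on the same strand. VEGFC, a growth factor of lymphatic vessels, rose by 1.16 (adjusted p = 0.0251), P2RX5, an ATP-gated channel, by 0.74 (adjusted p = 0.0109), and GRIK3, a kainate receptor subunit, by 1.19 (adjusted p = 0.017). SOX9, a factor of cartilage and progenitor cells, had 14, 14.2 and 13.6 CPM in WT-res against 19.3, 19.1 and 19.6 CPM in ΔRS-res (log2 fold change 0.47, adjusted p = 0.0277), and was the single called of 155 developmental factors. DLX1 (0.45, adjusted p = 0.0374) was the single called of 130 homeobox genes, and BMF, a pro-apoptotic member of the BCL2 family (0.56, adjusted p = 0.0498), of 38 apoptosis genes. EFNB1, a ligand of Eph receptors, rose by 0.58 (adjusted p = 0.0217). When single libraries were left out, CA12, VEGFC, SOX9, DLX1 and BMF were called in 0 of the 6 fits. IFITM2 and GRIK3 were called only without ΔRS-res replicate 3, and PRDX2, P2RX5 and EFNB1 only without that library or without WT-res replicate 2.

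Solute carriers (288 tested, median -0.01) had 2 genes called in each direction, and neurotransmitter receptors (76, median -0.05) had 1 reduced and 2 increased. Beside these counts, 0.770% of all genes tested outside the stretches were called. Ion channels (135, median 0.01) had RYR2 reduced and KCND2 increased, matrix proteases (68, median -0.01) had ADAM12 increased, and growth factors with their receptors (78, median 0.05) had VEGFC. KCND2 and ADAM12 were at low levels, with means of 0.0216 and 0.152 CPM in WT-res and 0.401 and 0.409 CPM in ΔRS-res. ADAM12 lost its call with any 1 library left out. The clustered protocadherins, adhesion genes that stand side by side on the long arm of chromosome 5 outside the stretch, were mostly lower. Of 35 tested 30 were lower and 5 higher, the median was -0.52, and the summed CPM was 15.2, 16.2 and 13.9 in WT-res against 12.6, 12.7 and 9.87 in ΔRS-res. None of them was called, the genes were at low levels, and they share sequence and exons. Over those of the 35 that also passed the filter of the other fit, the median was -0.26 without ΔRS-res replicate 3, reached -0.69 with another library left out, and was -0.18 in the study's 4 libraries.

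Genes of C2H2 zinc finger proteins, many of which are repressors, held 15 of the called genes, 13 reduced and 2 increased of 517 tested. Over all genes tested outside the stretches 0.417% were reduced and 0.353% increased. On chromosome 19, where such genes form long clusters, 9 of 239 tested genes named ZNF were reduced and 0 increased, 162 were lower and the median was -0.07. Elsewhere 4 of 233 were reduced and 2 increased, 112 were lower and the median was 0.01. ZNF730 had 1.91, 1.88 and 2.17 CPM in WT-res and 0.233, 0.378 and 0.414 CPM in ΔRS-res (log2 fold change -2.53, adjusted p = 0.00282, called with any 1 library left out). ZNF442 fell by 1.28 (adjusted p = 0.0117), ZNF737 by 1.26 (adjusted p = 0.00909) and ZNF43 by 0.59 (adjusted p = 0.0104), and these 3 were called only without WT-res replicate 2 or ΔRS-res replicate 3. ZNF83 and ZNF85, named after their values had been seen, fell by 0.95 and 0.99 and were called with any 1 library left out. Neighbouring genes were mostly lower too. Of the 20 nearest expressed genes, 19 were lower for ZNF730, ZNF83 and ZNF43, with medians of -0.18, -0.21 and -0.18. For ZNF442, ZNF737 and ZNF85, 14, 17 and 18 were lower, with medians of -0.08, -0.14 and -0.15. Zinc finger genes of a cluster resemble each other, which makes the division of reads among them uncertain.

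The share of called genes differed between chromosomes, and this spread was not tested. Over all genes tested outside the stretches 0.417% were reduced and 0.353% increased. On the X chromosome 17 of 850 tested genes were increased (2.0%) and 5 reduced (0.588%). On chromosome 17, 12 of 1591 were increased (0.754%) and 0 reduced, and on chromosome 13, 6 of 532 were increased (1.13%) and 0 reduced. Chromosome 19 had 14 reduced (0.824%) and 4 increased (0.236%) of 1698. Chromosomes 11 and 16 had 8 reduced (0.628% and 0.645%) and 1 increased (0.0785% and 0.0806%) each, of 1274 and 1241. The median log2 fold change of all genes on the X chromosome was 0.012 and on chromosome 17 it was 0.021, beside 0.009 over all genes.

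The increased X-linked genes included SCML1 and its neighbour RAI2, a retinoic acid-induced gene with 1.52, 1.85 and 1.73 CPM in WT-res and 7.13, 8.41 and 4.99 CPM in ΔRS-res (log2 fold change 2.01, adjusted p = 0.00375). The others named in this paragraph were chosen after their values had been seen. GK, glycerol kinase, had 35.9, 29.8 and 39.8 CPM in WT-res and 95.7, 101 and 133 CPM in ΔRS-res (log2 fold change 1.64, SE 0.153, adjusted p = 0.00291). Its pseudogene GK4P, elsewhere on the same chromosome, rose by 1.99, and reads of 2 such similar sequences may have been divided between them. LINC00632, the long non-coding RNA that overlaps CDR1 on the other strand, rose by 1.55 (adjusted p = 0.00789), from 16.5 ± 3.15 to 48.4 ± 11 CPM. HDX, a homeobox gene, rose by 1.74 (adjusted p = 0.0032) and TRO, trophinin, by 1.13 (adjusted p = 0.00476). GK, HDX and TRO remained called with any 1 library left out, and LINC00632 was not called without WT-res replicate 3.

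Some called genes lay next to each other. With a gap of at most 500 kb, 38 of the 192 had a called gene of the same direction nearby, in 16 groups. These groups were looked at after the values were known. On chromosome 17 (chr17:79778148-79801683) CBX2 and CBX8, subunits of polycomb repressive complex 1 that read the histone mark left by polycomb, were both increased. CBX2 had 71.2, 66.8 and 61.3 CPM in WT-res and 103, 93.7 and 109 CPM in ΔRS-res (log2 fold change 0.62, adjusted p = 0.0147). CBX8 rose by 0.77 (adjusted p = 0.0294). CBX2 was not called without WT-res replicate 3 or ΔRS-res replicate 1, and CBX8 was called only without WT-res replicate 2 or ΔRS-res replicate 3. In the major histocompatibility region (chr6:32517353-33009591) HLA-DRB5, TAP2, a peptide transporter, and HLA-DOA were reduced, by 1.31, 0.51 and 1.61. TAP2 lost its call with any 1 library left out, and reads of HLA genes are hard to place because they vary between people and resemble each other. On chromosome 9 the ciliary genes ANKS6 and INVS had ALG2 and ERP44 beside them, genes of the endoplasmic reticulum that were reduced by 0.64 and 0.58, and both of these lost their calls with any 1 library left out. PCDH10 and EPHA6 each rose together with a lncRNA gene beside it. Next to EIF3B (chr7:2354086-2380745), which fell, the pseudogene KIF19BP (chr7:2383698-2388652, same strand) went from 2 counts in WT-res to 197 in ΔRS-res, a ratio of normalised counts of 93.1 (95% interval 25.4 to 774, for counting error only). On the short arm of chromosome 21 (chr21:8197620-8462798) 5 genes without a name rose, 3 of them with identical values in every library, so these do not count as separate measurements. ENSG00000280441 and ENSG00000278996 of this group overlap ribosomal RNA genes (RNA5-8SN3, RNA5-8SN1 and RNA5-8SN2) on the same strand, and the libraries were depleted of rRNA. ENSG00000278996 had 7.12, 6.93 and 2.69 CPM in ΔRS-res, with replicate 3 the lowest.

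The same genes were then read in whole-cell RNA. One library, labelled WT-res whole-cell replicate 3, did not match its label at many of the called genes. There it carried values like those of ΔRS-res. These included H2AC8 and DDX19B, at 0.0852 and 0.199 CPM in this library. ZNF22 had 0.022 and 0.0168 CPM in the other WT-res whole-cell libraries, 2.06 in this one, and 2.1, 1.96 and 1.87 in ΔRS-res. SLC38A5 had 0.143 and 0.0922 CPM, 1.2, and 1.54, 1.29 and 1.57 in the same order. At other called genes this library lay with WT-res. ZNF43 had 19.3 and 29.4 CPM, 26.5, and 12.0, 13.9 and 11.8 in the same order. With this library included, 0 genes outside the stretches passed edgeR's test at an adjusted p under 0.05 in whole-cell RNA. An unadjusted p under 0.05 was found for 3105 of 25780. Without it 296 of 25747 were called (1.15%). All 192 genes called in the cytoplasm were tested there, and 135 were called in whole-cell RNA as well, 70 of the 104 reduced and 65 of the 88 increased. All 192 had the same direction without that library, and 189 with it, against 62.5% of 24201 genes tested in both fractions. The 192 were selected for their cytoplasmic difference, so the share over all genes is not a like baseline. The library left out carried values like those of ΔRS-res at many of these genes. Leaving it out raised the calls among the 192 from 0 to 135, so this agreement is not a separate test. The whole-cell and the cytoplasmic library of a given line and number share a cell pellet ID, so the fractions are not independent samples. The median log2 fold changes in whole-cell RNA were -1.04 for the reduced and 1.07 for the increased genes, beside -1.19 and 1.16 in the cytoplasm.

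Several genes with large cytoplasmic differences also differed in whole-cell RNA. H2AC8 had 16 and 17.4 CPM in the 2 WT-res whole-cell libraries and 0.291, 0.352 and 0.161 CPM in ΔRS-res, a log2 fold change of -5.97 (adjusted p = 0.000106). DDX19B had 12.6 and 13.2 CPM in WT-res and 0.263, 0.257 and 0.229 CPM in ΔRS-res whole-cell RNA (log2 fold change -5.69, adjusted p = 2.53e-05). SPARC changed by -4.68 (adjusted p = 0.000296), SCML1 by 2.12 (adjusted p = 0.000852) and EIF3B by -0.65 (adjusted p = 0.0109). For CANX the whole-cell value of -0.38 did not pass the test (adjusted p = 0.057). DYNLT3, a dynein light chain gene on the X chromosome chosen here for its unlike values, had 29.7, 29.3 and 33.8 CPM in WT-res and 51.6, 55.4 and 57.9 CPM in ΔRS-res cytoplasm (log2 fold change 0.83, adjusted p = 0.0042), but 12.8 and 19.6 against 16.4, 19.2 and 18.3 CPM in whole-cell RNA (0.14, adjusted p = 0.695). The interaction of line and fraction, which tests this difference itself, was 0.66 over the same libraries (SE 0.202, adjusted p = 0.884). For DDX19B the interaction over these libraries was 0.16 (SE 0.166, adjusted p = 0.887).

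The interaction of line and fraction was past the threshold for 1 gene outside the stretches (0.00413% of 24241 tested, with 1359 at an unadjusted p under 0.05), and for the same single gene without the library that goes against its label. That gene was ENSG00000263244, a lncRNA gene on chromosome 16 (chr16:9104848-9113181, plus strand). It had 14.1, 12.4 and 16.6 CPM in WT-res cytoplasm and 0 counts in all 3 ΔRS-res cytoplasmic libraries. Over the group that is 5209 counts against 0, so the level was at least 1837-fold lower when 3 counts over the 3 libraries are allowed (counting error only). In whole-cell RNA it was present in both lines, with 35.9 and 28.7 CPM in WT-res and 13.9, 13.3 and 26.8 CPM in ΔRS-res, and the difference of -0.84 on the log2 scale did not pass the test (SE 0.296, adjusted p = 0.18). The whole gene lies within an exon of HAPSTR1 on the same strand, so RSEM had to divide reads between the 2. HAPSTR1 itself, which codes for a stress-response protein, had 307, 363 and 327 CPM in WT-res and 352, 340.4 and 339 CPM in ΔRS-res cytoplasm (log2 fold change 0.05, SE 0.0801, adjusted p = 0.905).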

How the data were processed

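RNA-seq was made from rRNA-depleted whole-cell and cytoplasmic RNA of the WT-res and ΔRS-res lines, 3 libraries each. The authors trimmed reads with Trim Galore, aligned them to GRCh38 with STAR and quantified Ensembl 107 transcripts with RSEM within nf-core/rnaseq, and they deposited expected counts per transcript that are not scaled between libraries. The versions of these tools are not given in the sources used here. Cytoplasmic totals lay between 92.0 and 144.6 M.

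Expected counts were added up per gene and rounded. Types and positions came from GENCODE 44, which held 99.83% of the 61860 genes. Genes with a mean count above 2 were fitted with edgeR 4.0.16 (R 4.3.3) after TMM scaling, with the line as the only term, and called at an adjusted p (Benjamini-Hochberg over all genes tested) under 0.05. CPM values use the TMM-scaled totals. The pseudocount in the principal components was 0.5 CPM. DESeq2 1.42.0 was an alternative, and the steps were tested on simulated data. Fractions were compared by the interaction of line and fraction over all 12 libraries. The comparison was repeated with WT-res whole-cell replicate 3 left out, since it goes against its label at many of the called genes.

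The genes described, the 41 gene lists, the stretches and the tests were chosen with earlier results of these data known. Named genes were protein-coding or named lncRNA genes that were called, reached a mean of 1 CPM in a line and did not overlap between the lines. They were the 12 largest falls and 12 largest rises, the 6 per direction of highest CPM with a log2 fold change over 0.5, the 6 per direction of smallest p, up to 4 per list, and PPARGC1A, DDX19B, TFAM, NRF1, COX5A, COX10, COA6 and CAT whatever their values. Other genes are said to be chosen after their values were seen, and PPARGC1B, PPRC1, DDX19A and HAPSTR1 stand beside a relative or a host gene. KCND2 and ADAM12, below 1 CPM in both lines, are given as called members of their lists. Lists are described by counts and medians, without a set test. Protein sequences were not used here.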

Additional observations from a re-analysis of the deposited data

Results flagged for a closer look

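One result stood out because the difference between the lines was not the same in the 2 fractions by a test of that difference. For the lncRNA gene ENSG00000263244 the log2 fold change in the cytoplasm minus that in whole-cell RNA was -12.92 (SE 0.775, adjusted p = 0.000563 from edgeR's interaction of line and fraction). Because the ΔRS-res cytoplasmic libraries had 0 counts, this fitted value depends on the prior count and is not a bound. The adjusted p was 0.0052 with WT-res whole-cell replicate 3 left out, a library that goes against its label and had 31.2 CPM. The part that the division of reads with HAPSTR1 plays in this value was not tested.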

How the results depend on the processing

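The count of 192 called genes stayed within 1.5 times under DESeq2's size factors (193), TMM from genes outside the stretches (188), filterByExpr (205) and a fold threshold added to the adjusted p (168), and also when chromosomes 2, 5 and 7 were removed as a whole. It moved to 295 without a filter on low counts, 597 with DESeq2's Wald test, 1116 at the study's threshold (unadjusted p under 0.05, log2 change over 0.5 in size), and 5266 with the study's 4 libraries. Calls among the listed genes, 48, moved to 137 with DESeq2, 163 at that threshold and 842 with the 4 libraries. Leaving out 1 cytoplasmic library gave 54 to 158 called genes and 17 to 40 among the listed genes. The cause of these movements was not tested. Same-numbered libraries of the 2 lines deviated from their means with correlations of -0.449, 0.623 and 0.468, so not every pair exceeded 0.1 and the numbers were not taken to pair the samples, which the sources leave unsaid. With a replicate block 257 genes were called (183 of the 192) and 68 listed genes. Of the 192 genes, 0 were called in whole-cell RNA with all 6 libraries, 50 with the replicate block and 135 without WT-res whole-cell replicate 3. The interaction called 1 gene in each setting, the block for the cell pellet included.

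Over the 55 named and called genes, 683 of 825 values under the alternatives kept their direction and call, the others kept the direction and lost the call, and 0 reversed. NRF1 reversed to 0.04 with the study's 4 libraries, and with 1 library left out the log2 fold change ranged from -0.06 to 0.02 for NRF1, -0.15 to 0.03 for COX10, -0.02 to 0.15 for COA6 and -0.0039 to 0.12 for HAPSTR1. None of these 4 was called with all 6 libraries, and COX10 was called with the study's 4 (-0.17). Genes at a few counts per library carry the widest counting error.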
